A study of Mus musculus with 25 samples.

Results

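The 32 genes described here encode the oxidative stress defence run by the transcription factor NRF2 (gene Nfe2l2), together with the enzymes of glutathione, thioredoxin and the pentose phosphate pathway. They were chosen by symbol from the deposited count table, which held each of the 32 exactly 1 time among 17007 genes. In unstressed cells KEAP1 (Keap1) binds NRF2 and sends it to the proteasome. Electrophiles and oxidants, among them reactive aldehydes, modify KEAP1, so that NRF2 collects in the nucleus and binds antioxidant response elements of its target genes. This switch works on the protein, and the level of the Nfe2l2 transcript does not measure it. The duodenum, the first part of the small intestine, meets swallowed ethanol and dietary electrophiles directly, and glutathione and conjugating enzymes are part of the normal equipment of its epithelium.

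Polyadenylated RNA of the duodenum was sequenced in 25 libraries from male mice that were 8 weeks old at the start of 8 weeks on a diet. WT_Con (n = 4) and KI_Con (n = 4) were C57BL/6N and Aldh2KI mice, a knock-in of the acetaldehyde-oxidising enzyme Aldh2, on a control diet. WT_Half (n = 7) and KI_Half (n = 6) were fed a diet with 2.5% ethanol and gavaged 2 times a week at 2 g/kg, and WT_Full (n = 4) had 5% in the diet and gavages of 4 g/kg, with no Aldh2KI group at that regimen. Mice were killed 9 h after a final gavage described as 5 g/kg. The sources do not say if that dose was given to WT_Half and KI_Half too, or if controls had any gavage. The allele carried by Aldh2KI mice, zygosity and littermate status are not given either, so genotype cannot be told apart from colony. The p-values measure the spread between libraries of a group.

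Library totals ran from 24.6e6 to 44.8e6 counts. The sum of 10 duodenum and enterocyte markers was 14317 to 36748 CPM (read counts scaled to library size, with TMM adjustment), so the labelled tissue was present in all groups, and Aldh2 itself was counted in each group at means of 363 to 479 CPM, with no comparison past the threshold. WT_Con replicate 3 stood apart. It had the highest level of all 25 libraries for 8 of the 32 members (Nqo1, Me1, Cbr3, Abcc4, G6pdx, Gsta3, Gsta4 and Sqstm1). It also had the highest sum of the 3 Brunner gland markers, 53685 CPM against 35.1 to 33250 in the other WT_Con libraries. The stomach markers Atp4a and Pgc (2 of 4 in the table) summed to 1001 CPM in this library. Atp4a was at most 1.03 CPM in WT_Con, so nearly all of that sum was Pgc. The sum was 498, 231 and 3.20 CPM in WT_Con replicates 4, 1 and 2, the order of their Brunner gland sums. Pancreatic acinar markers (8 of 9 in the table) summed to 11.9 to 2216 CPM in WT_Con and 19.6 to 4457 in KI_Con against 12.4 to 52.9 in all ethanol groups. The 6 hepatocyte markers summed to 738, 599.6, 560.3 and 115 CPM in WT_Full replicates 1 to 4, to 607 to 1602 in WT_Con and to 744 to 974 in KI_Con. They summed to 539 to 864 CPM in WT_Half and 544 to 909 in KI_Half. The part of these tissues in the results was not tested, and values without the libraries concerned are given beside the results they change.

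Promoter sequences were available from RefSeq (GRCm38.p6) for 27 of the 32 members. They are shown for members whose transcripts went different ways, with a match to the core of the antioxidant response element (TGACNNNGC or TGAGNNNGC, either strand), searched in the 250 bases before the start site, in capitals. The whole window is shown for Slc7a11, and for the others a stretch around 1 match. Srxn1 and Ugdh each hold another core match outside the stretch shown. In Slc7a11, the member with the largest difference found here, the capitals also mark TGATGNAAN (either strand), the composite element read by ATF4, a transcription factor of amino acid and endoplasmic reticulum stress. All are written 5′ to 3′ on the strand of the gene. The Slc7a11 window is chr3:50443614-50443863, minus strand.
Slc7a11: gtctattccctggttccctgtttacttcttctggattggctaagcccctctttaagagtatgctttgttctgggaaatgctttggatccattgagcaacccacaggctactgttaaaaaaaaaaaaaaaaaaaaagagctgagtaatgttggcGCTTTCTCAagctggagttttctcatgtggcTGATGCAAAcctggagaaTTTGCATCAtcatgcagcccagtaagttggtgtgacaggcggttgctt
Gclm, chr3:122245403-122245451, plus strand: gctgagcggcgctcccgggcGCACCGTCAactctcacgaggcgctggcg
Prdx1, chr4:116685446-116685494, plus strand: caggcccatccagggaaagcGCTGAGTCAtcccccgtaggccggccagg
Ugdh, chr5:65435946-65435994, minus strand: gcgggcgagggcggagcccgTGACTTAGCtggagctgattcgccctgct
Srxn1, chr2:152105459-152105507, plus strand: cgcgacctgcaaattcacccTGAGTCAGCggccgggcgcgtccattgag
Txnrd1, chr10:82859094-82859142, plus strand: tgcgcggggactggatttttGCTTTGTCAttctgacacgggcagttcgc

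The core was found in 13 of the 33 windows of the members, some of which have several start sites, and in 23% of the 32851 promoter windows of the same length in the table. The 13 windows belong to 12 of the 27 members. The composite element was found in 1 member, Slc7a11, at 2 places, and in 3.44% of all windows. Of the members that rose in KI_Half vs KI_Con, 1 of the 5 with a window held the core (Slc7a11). Of those that fell, 4 of 7 held it (Gclm, Osgin1, Prdx1 and Ugdh), and of the 17 that did not pass, 7 of 15. These are matches of letters near the start site and say nothing of binding, and many known elements lie farther upstream.

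Across the 5 groups, 17 of the 32 members differed (edgeR quasi-likelihood F test, Benjamini-Hochberg adjusted p under 0.05), where 28.6% of all 17007 genes did (20 members and 42.9% of genes at an unadjusted p under 0.05). They were Slc7a11, Gpx2, Gsr, Gclc, Txn1, Prdx1, Srxn1, Tkt, Me1, Akr1b8, Nqo1, Cbr3, Hmox1, Ugdh, Gsta4, Ephx1 and Abcc1. Hmox1, Gclc, Srxn1 and Me1 passed here but in no edgeR comparison of 2 groups. Some of the 17 calls were lost when 1 library was left out, such as Me1 (adjusted p up to 0.278). Most of the pairwise differences lay between KI_Half and KI_Con. There 7 members were higher and 8 lower, 15 of 32, against a background of 37.9% of 16944 genes, 20% higher and 17.9% lower. The same shares are the background of the counts by role and by neighbouring list given below for this comparison. The groups did not overlap for 6 of the higher and 6 of the lower members (13.5% and 13.9% of all genes, 27.4% in either direction), and 19 members had an unadjusted p under 0.05, where 47.1% of genes did. The median log2 difference of the members was -0.06, and that of all genes 0.00. The members therefore did not move one way. In bulk RNA of a tissue, fewer cells of a type and less RNA per cell cannot be told apart. In the Aldh2KI mice Slc7a11, Gpx2, Gsr, Akr1b8, Cbr3, Abcc1 and Tkt rose, Ugdh, Gsta4, Ephx1, Txn1, Prdx1, Gclm, Nqo1 and Osgin1 fell, and the 3 regulators did not pass. In WT_Half vs WT_Con 1 member passed (Tkt, higher), where 1.47% of 16993 genes did, 0.894% higher and 0.571% lower. At an unadjusted p under 0.05 there were 13 members, where 21.8% of genes passed, and the groups did not overlap for Tkt, higher, and Ugdh and Ephx1, lower (3.10% and 2.17% of genes, 5.27% in either direction). None passed in WT_Full vs WT_Con, WT_Full vs WT_Half, KI_Half vs WT_Half, KI_Con vs WT_Con or the test of the genotype difference in response, where edgeR called 0.00592%, 0%, 0%, 0% and 0% of genes.

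**Figure D1:**
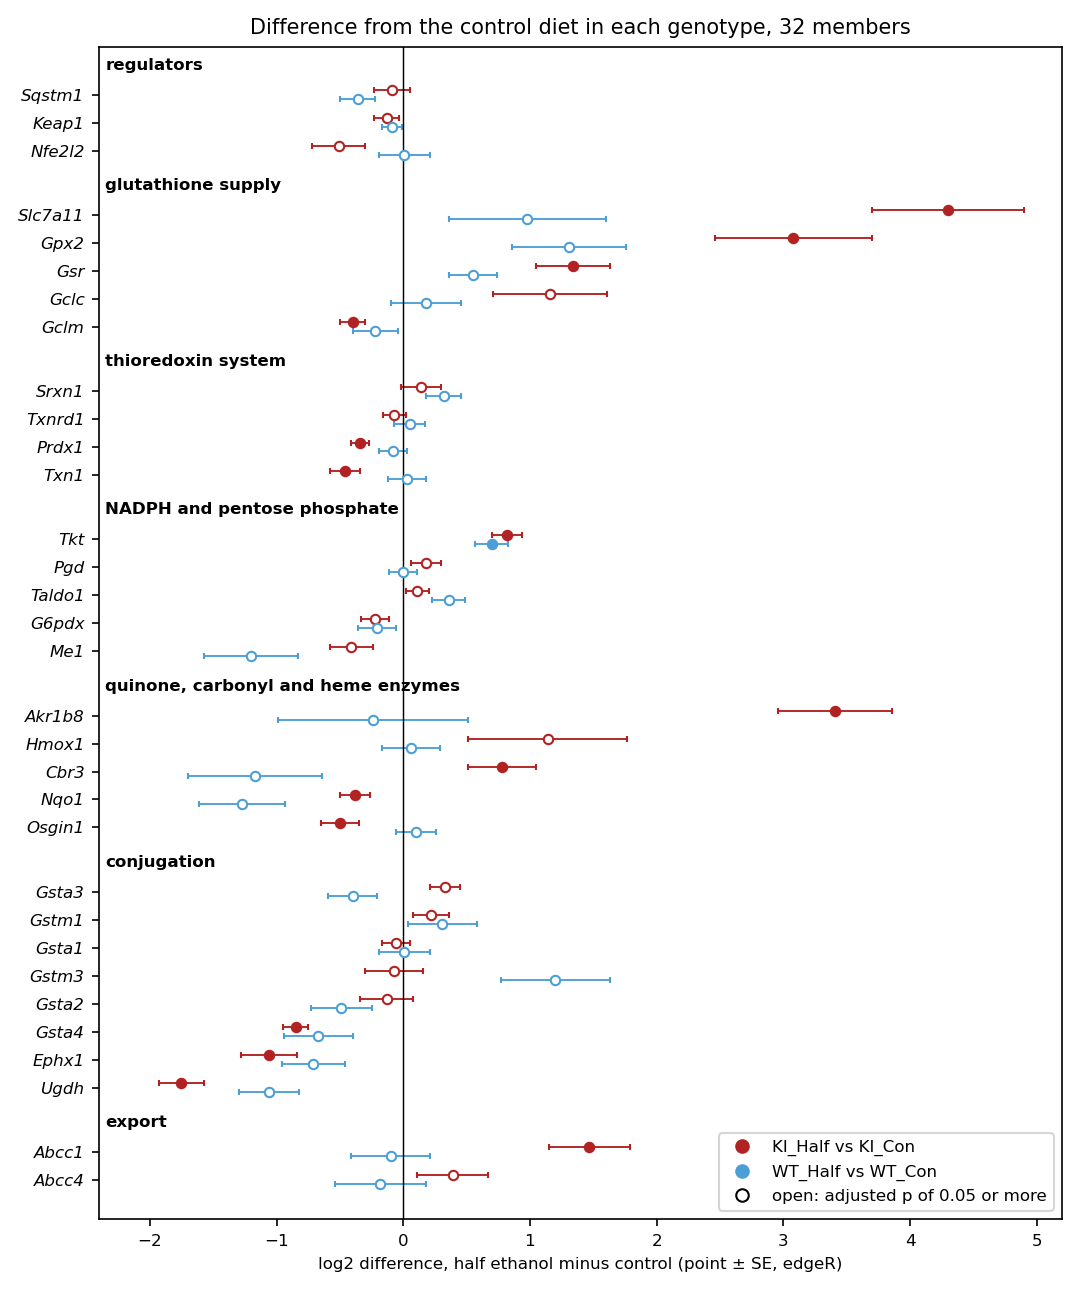
Log2 difference between the 2.5% ethanol regimen and the control diet for each of the 32 members, grouped by role, in Aldh2KI mice (KI_Half vs KI_Con, red) and in wild type mice (WT_Half vs WT_Con, blue), as edgeR estimate ± SE, filled where the adjusted p was under 0.05. Slc7a11, Akr1b8 and Gpx2 lie farthest right at 4.30, 3.41 and 3.08 in red, Ugdh farthest left at -1.75, and 1 blue point, Tkt, is filled.

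The regulators come first. Nfe2l2 (ENSMUSG00000015839, GRCm38 chromosome 2, 75675513 to 75704641, minus strand) had 282, 322, 305 and 259.9 CPM in WT_Con and 313, 367, 279 and 272 in KI_Con. In WT_Half its lowest, median and highest values were 166, 303 and 399.9 CPM, in KI_Half 143, 207 and 321, and in WT_Full 342, 284, 274 and 412. Its values in KI_Half reached the lowest of all groups but overlapped with KI_Con, with a log2 difference of -0.51 ± 0.21 (adjusted p = 0.0804; it passed in 1 of 10 fits that left out a library). Keap1, the sensor that holds NRF2 down (ENSMUSG00000003308, chromosome 9, 21229730 to 21239361, minus strand), was the steadiest of the regulators. It had 62.9, 61.3, 60.5 and 64.4 CPM in WT_Con, 59.6, 59.1, 63.1 and 61.6 in KI_Con, 61.8, 63.9, 58.0 and 71.0 in WT_Full, and 53.3, 59.5 and 63.4 (lowest, median, highest) in WT_Half and 50.1, 53.0 and 66.1 in KI_Half. Its log2 difference in KI_Half vs KI_Con was -0.13 ± 0.10 (adjusted p = 0.318).

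Sqstm1 encodes p62, an autophagy receptor that competes with NRF2 for KEAP1 (ENSMUSG00000015837, chromosome 11, 50199366 to 50210827, minus strand). It had 179, 161, 234 and 184 CPM in WT_Con, 171, 176, 172 and 230.2 in KI_Con and 125, 131, 138 and 198 in WT_Full. In WT_Half it ran from 98.4 through a median of 155 to 162 CPM, and in KI_Half from 148 through 166 to 213. The groups overlapped, and neither comparison with the control diet passed, at -0.09 ± 0.14 log2 for KI_Half vs KI_Con (adjusted p = 0.655) and -0.36 ± 0.14 for WT_Half vs WT_Con (0.163). Sqstm1 shares 17.3% of its exon bases with the opposite-strand gene Mrnip and Keap1 10.9% with an antisense transcript, and no source used here gives the strand setting of the counting. Among 8 further genes of the KEAP1 and NRF2 machinery, 1 rose and 0 fell in KI_Half vs KI_Con (20% and 17.9% of all genes). It was Rbx1, a subunit of the ubiquitin ligase that KEAP1 serves, at 72.5 ± 3.98 CPM (SD, n = 6) against 55.9 ± 6.17 (n = 4), a log2 difference of 0.38 ± 0.10 (adjusted p = 0.00932). Bach1, a repressor that occupies the same elements as NRF2, had 77.4 ± 25.6 against 55.2 ± 7.26 CPM (log2 difference 0.50 ± 0.23, adjusted p = 0.110) and 38.0 ± 4.62 in WT_Full.

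**Figure D2:**
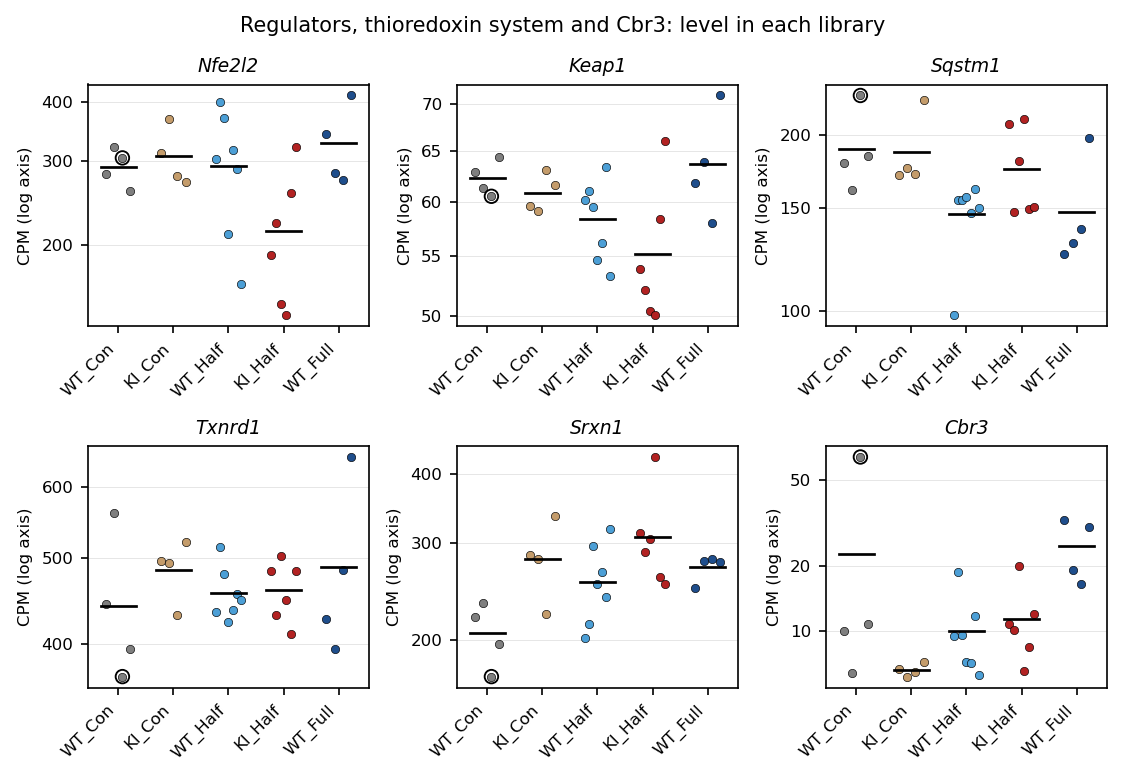
Level of the 3 regulators, of Txnrd1 and Srxn1 of the thioredoxin system and of Cbr3 in each library (CPM, log axis), with bars at group means and a ring around WT_Con replicate 3. Keap1 stays between 50.1 and 71.0 CPM in all 25 libraries, and Cbr3 in WT_Full lies at 16.5 to 32.5 CPM, above all KI_Con libraries.

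Of the 5 members grouped as glutathione supply, which here takes in the peroxidase Gpx2, 3 rose and 1 fell in KI_Half vs KI_Con. Slc7a11, with the largest rise of the 32 members, encodes the subunit of the cystine and glutamate exchanger that brings in cystine for glutathione synthesis (ENSMUSG00000027737, chromosome 3, 49892526 to 50443614, minus strand). It was scarce under the control diet, at 0.154, 0.558, 0.312 and 0.750 CPM in KI_Con and 0.487, 0.302, 2.83 and 0.735 in WT_Con. In KI_Half the lowest, median and highest values were 3.06, 9.50 and 14.1 CPM, in WT_Half 0.897, 1.65 and 5.02, and in WT_Full the libraries had 2.54, 0.850, 1.99 and 0.536. Every KI_Half library lay above every KI_Con library. The log2 difference was 4.30 ± 0.60 (adjusted p = 0.000638). The lowest count behind these values is 4 reads, so the size of the fold is imprecise, and the direction held in 10 of 10 fits that left out a library (log2 4.03 to 4.64). Per kilobase of exon Slc7a11 remained the lowest of the 32 members, at a mean of 0.228 CPM per kb over all libraries, where Txn1 had 998.

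Gpx2, the glutathione peroxidase of the gut epithelium (ENSMUSG00000042808, chromosome 12, 76792333 to 76795554, minus strand), had 69.0, 70.0, 72.0 and 65.7 CPM in KI_Con and 50.2, 76.8, 139 and 112 in WT_Con. In KI_Half it ran from 173 through a median of 413 to 1633 CPM, in WT_Half from 102 through 182 to 509, and in WT_Full it had 311, 367, 462 and 118. The KI_Con values were tight and lay below all KI_Half values. The difference was 3.08 ± 0.62 log2 (adjusted p = 0.00322), and 2.46 without replicate 3, the KI_Half library at 1633 CPM. Gsr, which returns oxidised glutathione to its reduced form (ENSMUSG00000031584, chromosome 8, 33652523 to 33698163, plus strand), had 82.5, 82.1, 81.8 and 84.4 CPM in KI_Con, 78.4, 91.0, 132 and 99.0 in WT_Con, 175, 195, 223 and 123 in WT_Full, 114 to 203 (median 140.0) in WT_Half and 112 to 392 (median 200.2) in KI_Half. It too was higher in every KI_Half than in every KI_Con library, by 1.34 ± 0.29 log2 (adjusted p = 0.00501).

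The pair of subunits of glutamate-cysteine ligase, which catalyses the rate-limiting step of glutathione synthesis, did not move together. The catalytic subunit Gclc (ENSMUSG00000032350, chromosome 9, 77754535 to 77794485, plus strand) had 164, 87.8, 112 and 98.1 CPM in KI_Con, 110.1, 159, 113 and 69.9 in WT_Con and 83.5, 53.6, 51.4 and 114 in WT_Full. Its range was 65.7 to 198 CPM (median 128) in WT_Half and 106 to 501 (median 189.7) in KI_Half. KI_Half and KI_Con overlapped, and the log2 difference of 1.16 ± 0.45 missed the threshold (adjusted p = 0.0593; it passed in 3 of 10 fits that left out a library). The modifier subunit Gclm fell, from 98.7 ± 4.93 CPM (n = 4) to 74.3 ± 9.60 (n = 6), by 0.40 ± 0.10 on the log2 scale (adjusted p = 0.0112), with no overlap. The estimate was -0.41 in 1 fit of all 25 libraries, -0.33 with a replicate block and -0.44 without the acinar-rich controls, and the call was lost in each (0.144, 0.0572 and 0.0608).

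**Figure D3:**
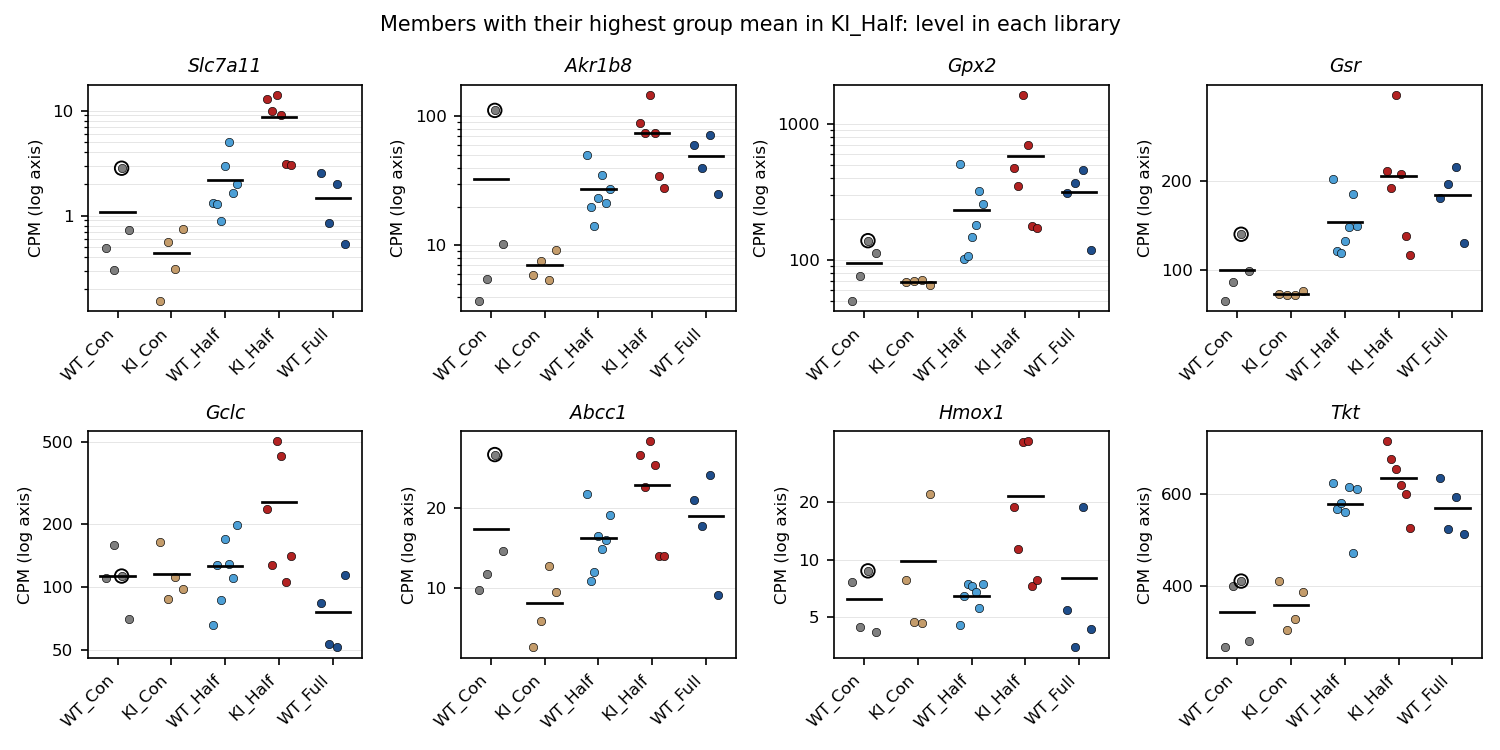
Level of the 8 members Slc7a11, Akr1b8, Gpx2, Gsr, Gclc, Abcc1, Hmox1 and Tkt, all with their highest group mean in KI_Half, in each library (CPM, log axis), with bars at group means and a ring around WT_Con replicate 3. The KI_Half points of Slc7a11, Akr1b8, Gpx2, Gsr, Abcc1 and Tkt lie above all KI_Con points, those of Gclc and Hmox1 overlap with them, and WT_Con replicate 3 is at 111 CPM for Akr1b8 where the other WT_Con libraries are at 3.72 to 10.2.

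Among 37 other glutathione genes in the table, 7 rose and 15 fell in KI_Half vs KI_Con (20% and 17.9% of all genes), with a median log2 difference of -0.35. Chac1, which degrades glutathione and is a known ATF4 target, rose most, from 1.03 ± 0.357 to 20.7 ± 19.3 CPM (log2 4.32 ± 0.74, adjusted p = 0.00158). Microsomal glutathione transferase Mgst1 rose from 148 ± 14.1 to 269 ± 31.5 CPM (0.87 ± 0.11, adjusted p = 0.000456). Mgst1 was also the 1 gene of this list to pass in WT_Half vs WT_Con, where 1.47% of all genes did. It had 235 ± 41.4 (n = 7) against 136 ± 27.2 CPM (n = 4), a log2 difference of 0.80 ± 0.17 (adjusted p = 0.0420). Slc3a2, the partner chain of Slc7a11 in the exchanger, had 235 ± 20.7 CPM in KI_Half against 282 ± 31.9 in KI_Con (-0.26 ± 0.10, adjusted p = 0.0638). The peroxidases Gpx1 and Gpx4 had log2 differences of 0.19 ± 0.09 (0.136) and -0.35 ± 0.17 (0.130).

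Of the 4 thioredoxin members, 2 fell and 0 rose in KI_Half vs KI_Con. Txn1, the small disulfide reductase itself and the most abundant member per length (ENSMUSG00000028367, chromosome 4, 57943373 to 57956411, minus strand), had 1562, 1216, 1192 and 1338 CPM in KI_Con and 1163, 1059, 677 and 853 in WT_Con. In KI_Half it ran from 815 through a median of 992 to 1057 CPM, in WT_Half from 899 through 938 to 1052, and WT_Full had 1019, 1444, 1119 and 1126. The KI_Con libraries were the high ones here, and KI_Half did not overlap with them (fell by 0.46 on the log2 scale, SE 0.12, adjusted p = 0.0101). Its mean in KI_Half, 959.9 CPM, was close to those of WT_Con and WT_Half, 938 and 955. Prdx1, a peroxidase that thioredoxin keeps reduced, showed the same layout, with 676 ± 20.5 CPM in KI_Con, 529 ± 25.5 in KI_Half, 559 ± 36.7 in WT_Con and 527 ± 57.0 in WT_Half (KI_Half vs KI_Con -0.34 ± 0.07, adjusted p = 0.00490, lost with a replicate block at -0.29 and 0.0570). Both lay above every WT_Con library in KI_Con, at log2 differences of 0.49 ± 0.18 and 0.26 ± 0.10 that did not pass (adjusted p = 0.502 for each). Thioredoxin reductase Txnrd1 and sulfiredoxin Srxn1, textbook NRF2 targets, did not pass in KI_Half vs KI_Con (-0.07 ± 0.09 and 0.14 ± 0.16, adjusted p = 0.588 and 0.495).

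Of 18 other thioredoxin and peroxide genes, 3 rose and 7 fell in KI_Half vs KI_Con (20% and 17.9% of all genes). Txnip, the inhibitor that binds thioredoxin, rose from 260.4 ± 44.5 to 462 ± 118 CPM (0.84 ± 0.19, adjusted p = 0.00623), and the mitochondrial peroxidase Prdx3 from 73.3 ± 6.37 to 95.4 ± 9.51 (0.39 ± 0.10, adjusted p = 0.00954). Catalase (Cat), which destroys hydrogen peroxide in peroxisomes and can also oxidise ethanol, fell from 286 ± 45 to 131 ± 24.8 CPM (-1.12 ± 0.15, adjusted p = 0.000520). The mitochondrial superoxide dismutase Sod2 stayed within 106 to 131 CPM in KI_Con and KI_Half (-0.11 ± 0.08, adjusted p = 0.295).

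Of the 5 members that make NADPH or run the pentose phosphate pathway, Tkt alone passed. Tkt, the transketolase of the non-oxidative branch (ENSMUSG00000021957, chromosome 14, 30548359 to 30574720, plus strand), had 304, 399, 408 and 312 CPM in WT_Con, 408, 329, 345 and 388 in KI_Con and 646, 514, 593 and 502 in WT_Full. In WT_Half it ran from 463 through a median of 577 to 631 CPM and in KI_Half from 517 through 648 to 759. Every ethanol-fed library, of either genotype, lay above every control library of either genotype. The log2 difference was 0.82 ± 0.12 in KI_Half vs KI_Con (adjusted p = 0.000674), 0.70 ± 0.13 in WT_Half vs WT_Con (0.0229) and 0.68 ± 0.17 in WT_Full vs WT_Con (0.159), the latter 2 comparisons sharing the WT_Con libraries. Tkt had the smallest p of the members in the test across 5 groups (adjusted p = 9.96e-05). The call in WT_Half vs WT_Con was lost with a covariate for Brunner gland content (0.148) and with a replicate block (0.482). It was also lost without WT_Con replicate 1 or 4 or WT_Half replicate 4, 5 or 7. Dropping the acinar-rich controls leaves 1 WT_Con library, too few to judge the call, at a log2 difference of 0.52.

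G6pdx and Pgd, which make NADPH in the oxidative branch, had log2 differences of -0.22 ± 0.11 (adjusted p = 0.129) and 0.18 ± 0.12 (0.253) in KI_Half vs KI_Con. Taldo1, transaldolase, had 0.11 ± 0.09 (0.364), and malic enzyme Me1 -0.41 ± 0.17 (0.0743). G6pdx shares 13.6% of its exon bases with the opposite-strand gene Ikbkg. Among 11 other NADPH genes 3 rose and 2 fell (20% and 17.9% of all genes). Mthfd2, a mitochondrial enzyme of folate metabolism and a known ATF4 target, rose from 14.1 ± 3.49 to 78.1 ± 25.5 CPM (2.48 ± 0.27, adjusted p = 0.000290), and H6pd, the glucose-6-phosphate dehydrogenase of the endoplasmic reticulum, from 35.6 ± 1.75 to 103 ± 40.6 (1.54 ± 0.28, adjusted p = 0.00194).

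The quinone, carbonyl and heme enzymes divided. Akr1b8, an aldo-keto reductase that reduces aldehydes (ENSMUSG00000029762, chromosome 6, 34354119 to 34368463, plus strand), had 5.88, 7.52, 5.43 and 9.20 CPM in KI_Con and 27.9 to 146 (median 74.2) in KI_Half. It had 3.72, 5.46, 111 and 10.2 in WT_Con, 14.1 to 50.4 (median 23.3) in WT_Half and 60.4, 39.7, 71.8 and 25 in WT_Full. All ethanol-fed libraries lay above all control libraries except WT_Con replicate 3. Akr1b8 rose by 3.41 ± 0.45 log2 in KI_Half vs KI_Con (adjusted p = 0.000544). In WT_Half vs WT_Con it was -0.24 ± 0.75 (adjusted p = 0.879) with WT_Con replicate 3 and 2.08 (0.0450) without it, so that 1 library sets both the sign and the call. In WT_Full vs WT_Con it was 0.62 ± 0.97 (0.759) with that library and 2.94 (0.124) without it.

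Nqo1, the quinone reductase that serves as the classic reporter of NRF2 (ENSMUSG00000003849, chromosome 8, 107388225 to 107403206, minus strand), did not rise. It had 45.6, 56.6, 43.3 and 46.0 CPM in KI_Con, 29.3 to 44.1 (median 36.3) in KI_Half, 34.8, 52.8, 160.2 and 39.9 in WT_Con, 23.7 to 40.5 (median 26.6) in WT_Half and 52.8, 36.3, 27.8 and 49.2 in WT_Full. It fell by 0.38 on the log2 scale in KI_Half vs KI_Con (SE 0.12, adjusted p = 0.0290), a call that held in 6 of 10 fits that left out a library. It was lost in 1 fit of all 25 libraries (-0.39, 0.315), with a replicate block (-0.22, 0.226) and without the acinar-rich controls (-0.29, 0.217). In WT_Half vs WT_Con the log2 difference of Nqo1 was -1.27 ± 0.34 (adjusted p = 0.0763), and -0.52 (0.155) without WT_Con replicate 3. DESeq2 (-1.28, 0.00992) and 1 edgeR fit of all 25 libraries (-1.28, 0.0118), which keep that library, called Nqo1 lower. Osgin1, a growth inhibitor induced by oxidative stress, also fell in KI_Half vs KI_Con, from 68.3 ± 16.5 to 47.9 ± 6.00 CPM (-0.50 ± 0.15, adjusted p = 0.0237, past the threshold in 7 of 10 fits that left out a library, and at -0.39 and 0.150 without the acinar-rich controls).

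Cbr3, a carbonyl reductase (ENSMUSG00000022947, chromosome 16, 93683215 to 93690990, plus strand), had 6.69, 6.14, 6.42 and 7.19 CPM in KI_Con and 6.49 to 19.9 (median 10.4) in KI_Half, overlapping. The log2 difference was 0.78 ± 0.27 (adjusted p = 0.0371, past the threshold in 5 of 10 such fits). This call was lost in 1 fit of all 25 libraries (0.218) and without the acinar-rich controls (0.198). WT_Con had 10, 6.40, 63.6 and 10.8 CPM, WT_Half 6.22 to 18.7 (median 9.43) and WT_Full 32.5, 19.2, 16.5 and 30.1. In WT_Half vs WT_Con the log2 difference was -1.17 ± 0.53 (adjusted p = 0.224) with WT_Con replicate 3 and 0.14 (0.837) without it. Cbr3 was the member with the smallest p in WT_Full vs WT_Half (1.31 ± 0.29 log2, unadjusted p = 0.000643), which did not pass over all genes with edgeR (adjusted p = 1.00) and did with DESeq2. Heme oxygenase Hmox1, which breaks down heme to carbon monoxide, iron and biliverdin, had 7.33 to 41.7 CPM (median 15.2) in KI_Half against 4.68 to 22.2 (median 6.31) in KI_Con (1.14 ± 0.63, adjusted p = 0.173). It passed in 1 of 10 fits that left out a library (log2 0.84 to 1.90).

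The 8 members grouped under conjugation take in donor synthesis (Ugdh) and epoxide hydrolysis (Ephx1) beside the glutathione transferases. In KI_Half vs KI_Con 3 of the 8 fell and 0 rose. The transferase Mgst1, listed with the other glutathione genes, rose. Ugdh makes UDP-glucuronic acid, the donor for glucuronidation (ENSMUSG00000029201, chromosome 5, 65413221 to 65435949, minus strand). It had 682, 719.9, 624 and 662 CPM in KI_Con and 156, 177 and 303 (lowest, median, highest) in KI_Half, 699, 686, 509 and 487 in WT_Con and 145, 283 and 441 in WT_Half. In WT_Full it had 189.9, 229 and 116 CPM in replicates 1 to 3 and 645 in replicate 4. With that library as the exception, ethanol-fed libraries lay below control libraries. In KI_Half vs KI_Con this was a log2 difference of -1.75 ± 0.18 (adjusted p = 0.000276), and -1.06 ± 0.24 in WT_Half vs WT_Con (0.0535), where DESeq2 (0.00228) and limma-voom (0.0225) called it. Gsta4, the glutathione transferase that detoxifies the lipid aldehyde 4-hydroxynonenal (ENSMUSG00000032348, chromosome 9, 78182774 to 78209349, plus strand), had 675, 773, 773 and 849 CPM in KI_Con and 374 to 465 (median 419) in KI_Half (-0.85 ± 0.10, adjusted p = 0.000353). It had 564, 517, 1154 and 573 CPM in WT_Con, 293 to 709 (median 381) in WT_Half and 429.7, 594, 425 and 557 in WT_Full, which overlapped (WT_Half vs WT_Con -0.67 ± 0.27, adjusted p = 0.179, and -0.33 without WT_Con replicate 3).

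Ephx1, the microsomal epoxide hydrolase (ENSMUSG00000038776, chromosome 1, 180976210 to 181020904, minus strand), had 57.5, 70.3, 71.7 and 62.7 CPM in KI_Con and 21.0 to 52.1 (median 29.2) in KI_Half. In WT_Con it had 61.4, 45.5, 47.3 and 67.9, in WT_Half 13.3 to 45 (median 36.7) and in WT_Full 25.7, 27.1, 15.8 and 56.3. The ethanol-fed libraries of WT_Half and KI_Half lay below the controls of their genotype, at -1.06 ± 0.22 log2 for KI_Half vs KI_Con, which passed (adjusted p = 0.00349), and -0.71 ± 0.25 for WT_Half vs WT_Con, which did not (0.137). The glutathione transferases Gsta1, Gsta2, Gsta3, Gstm1 and Gstm3 did not pass in any comparison, with log2 differences of -0.06 ± 0.11, -0.13 ± 0.21, 0.33 ± 0.12, 0.22 ± 0.14 and -0.07 ± 0.23 in KI_Half vs KI_Con. Gsta1 and Gsta2, and Gstm1 and Gstm3, are close copies whose reads the counting could split. Of the 2 export members 1 rose. Abcc1, which pumps glutathione conjugates out of the cell, went from 8.81 ± 2.63 CPM in KI_Con to 24.4 ± 9.39 in KI_Half (1.47 ± 0.32, adjusted p = 0.00478), and Abcc4 had 4.39 ± 0.692 and 5.70 ± 2.16 (0.39 ± 0.28, adjusted p = 0.302). Among the other glutathione genes, Abcc2, a conjugate pump of the apical membrane named here after its values were seen, fell from 640.0 ± 79.5 to 183 ± 70.2 CPM (-1.79 ± 0.26, adjusted p = 0.000747).

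**Figure D4:**
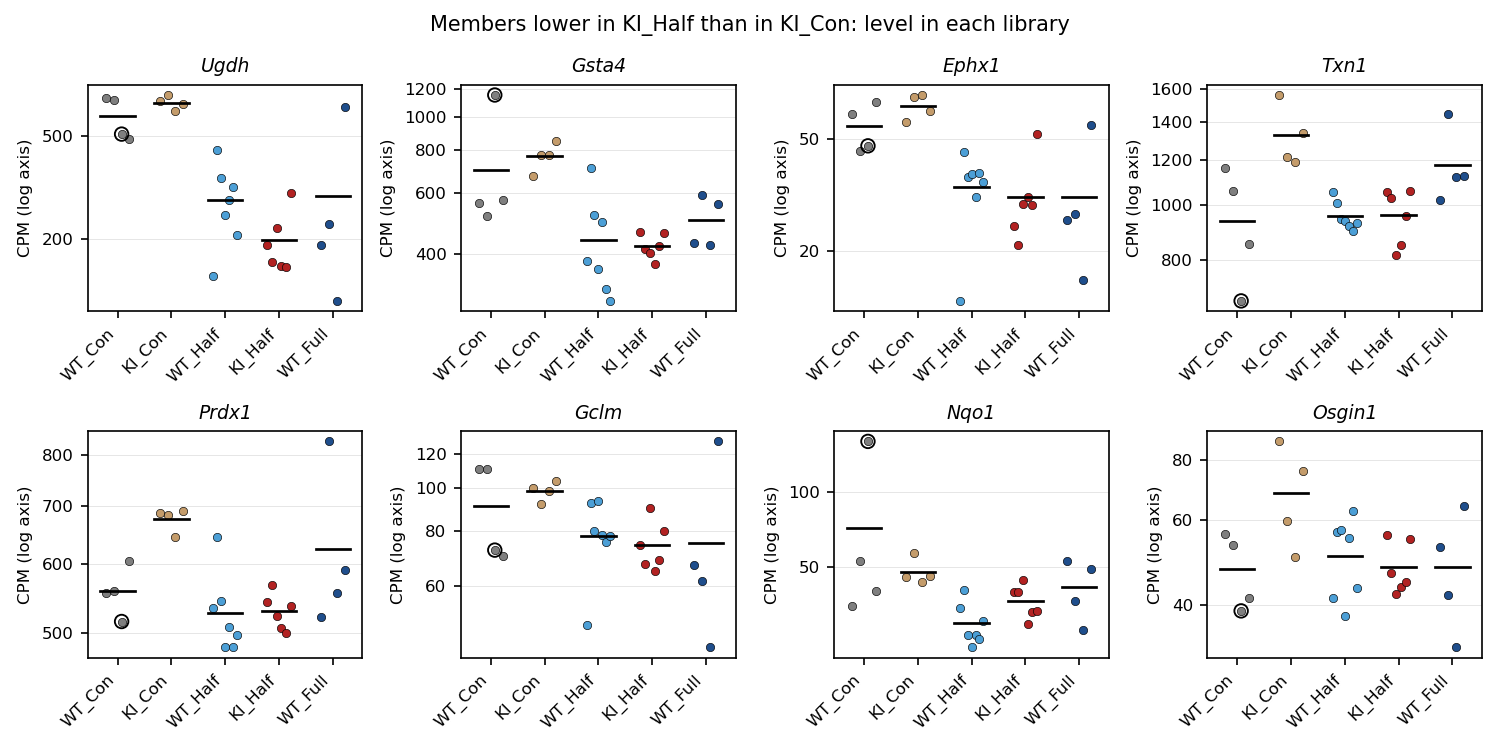
Level of the 8 members that fell in KI_Half vs KI_Con in each library (CPM, log axis), with bars at group means and a ring around WT_Con replicate 3. Ugdh, Gsta4, Ephx1, Txn1, Prdx1 and Gclm do not overlap between KI_Half and KI_Con, Nqo1 and Osgin1 do, and WT_Full replicate 4 sits with the control libraries for Ugdh at 645 CPM.

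Of 16 other NRF2 targets in the table, 2 rose and 7 fell in KI_Half vs KI_Con (20% and 17.9% of all genes), with a median log2 difference of -0.42. Ftl1, a ferritin chain, fell from 471 ± 70.0 to 318 ± 23.0 CPM (-0.56 ± 0.11, adjusted p = 0.00257), and the channel gene Panx2 had 0.730 ± 0.241 and 0.669 ± 0.158 (-0.11 ± 0.30, adjusted p = 0.794). None of these 16 passed in WT_Half vs WT_Con, where 1.47% of all genes did.

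**Figure D5:**
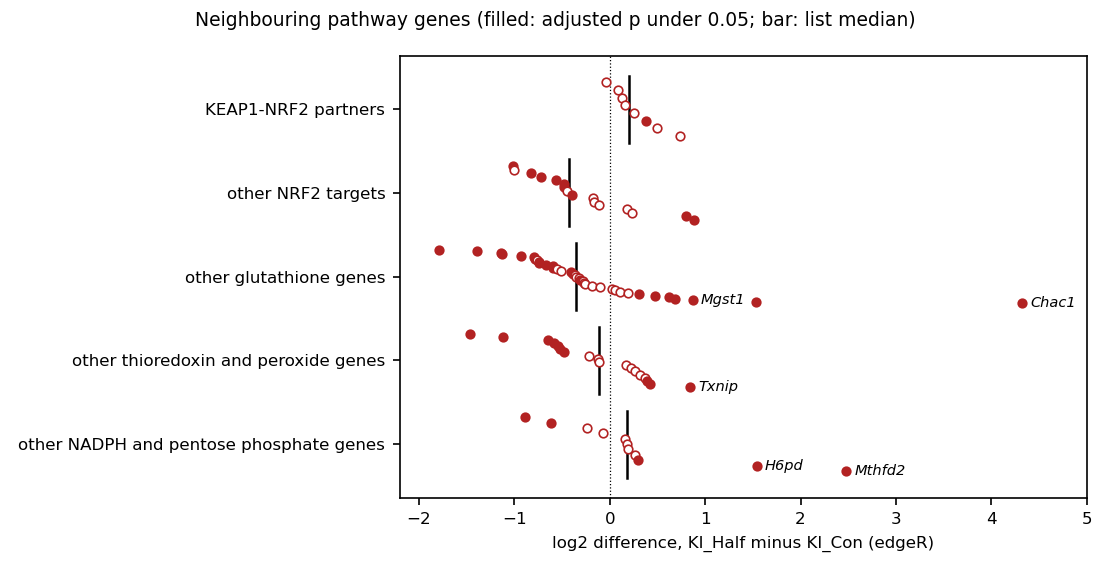
Log2 difference in KI_Half vs KI_Con of each gene in the 5 lists of neighbouring pathway genes, filled where the adjusted p was under 0.05, with a bar at each list's median. The lists spread to both sides of 0, with medians from -0.42 (other NRF2 targets) to 0.21 (KEAP1 and NRF2 partners), and Chac1 at 4.32 and Mthfd2 at 2.48 lie far to the right of their lists.

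KI_Half libraries differed among themselves in the members that were high. Of the 7 members with a log2 difference of at least 1 (Slc7a11, Akr1b8, Gpx2, Gsr, Abcc1, Gclc and Hmox1), 6 had their 4 highest KI_Half values in replicates 1, 2, 3 and 5, all but Gclc. This set of 4 libraries was not fixed before the values were seen. The share of all genes with the same 4 libraries highest was not counted, so the 6 of 7 is a description only. The summed level of 6 neutrophil markers (6 of 6 in the table) was 207, 198, 261 and 536 CPM in those 4 libraries and 85.0 and 18.2 in replicates 6 and 7. It was 1.22 to 4.37 in the control groups, 11.3 to 73.3 in WT_Half and 4.85 to 167 in WT_Full. In KI_Half most of this sum was Ly6g, at a mean of 193 CPM. The KI_Half means of S100a8, S100a9, Csf3r, Cxcr2 and Retnlg were 5.80, 9.23, 4.57, 3.22 and 2.05 CPM. The 5 crypt and proliferation markers summed to 308 to 404 CPM in KI_Half and 146 to 254 in KI_Con. Means of Olfm4, Mki67 and Top2a were higher in KI_Half (208, 80.8 and 83.1 against 114, 46.2 and 44.8 CPM). The stem cell marker Lgr5 was lower (2.14 against 4.25), and Ascl2 had 2.84 against 2.69. The 8 T and NK cell markers summed to 26.2 to 139 CPM in KI_Half and 189 to 246 in KI_Con. The part of these cells in the members' differences was not tested. Without the acinar-rich controls, which leaves 2 KI_Con libraries, 3 members passed as higher (Slc7a11, Akr1b8 and Tkt) and 3 as lower (Ugdh, Gsta4 and Ephx1). The number of all genes called fell in that fit too. It is given in the closing section, without a split by direction, so these counts are a description only. The other 9 called members kept their direction, among them Gpx2 at 3.09 (adjusted p = 0.0531) and Gsr at 1.33 (0.0633).

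KI_Half vs WT_Half asked whether the genotypes differed under the same regimen. No member passed with edgeR, and 10 of 32 had an unadjusted p under 0.05, where 14.2% of 16907 genes did. Slc7a11 had 8.71 ± 4.76 CPM (n = 6) against 2.17 ± 1.42 (n = 7), a log2 difference of 2.00 ± 0.45 (adjusted p = 0.265). Hmox1 had 21.5 ± 16.2 against 6.50 ± 1.09 CPM (1.72 ± 0.39, adjusted p = 0.266), Akr1b8 74.2 ± 42.8 against 27.3 ± 12.1 (1.45 ± 0.36, 0.266) and Gclc 257 ± 168 against 127 ± 45.7 (1.02 ± 0.37, 0.292). DESeq2 called Slc7a11, Hmox1 and Akr1b8, and limma-voom 3 members. The authors' deposited table, made with DESeq2 for this comparison, calls 2 members, Slc7a11 at 2.01 (adjusted p = 0.012) and Hmox1 at 1.72 (0.0154), where it calls 1.24% of 17007 genes. The groups overlapped for all 32 members, and for all but 0.266% of genes (0.118% higher, 0.148% lower).

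The test of the genotype difference in response, (KI_Half - KI_Con) minus (WT_Half - WT_Con) over 21 libraries, called no member with edgeR, with 13 of 32 at an unadjusted p under 0.05 and 12.7% of 17006 genes. Akr1b8 had 3.67 ± 0.97 log2 and Slc7a11 3.33 ± 0.88 (adjusted p = 0.327 for each). These fell to 1.33 and 2.21 without WT_Con replicate 3 (0.734 for each). Abcc1 had 1.58 ± 0.46 (0.332) and 1.06 (0.734) without that library. DESeq2 called Slc7a11 (adjusted p = 0.0284). These comparisons share KI_Half and WT_Half libraries with those above.

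In KI_Con vs WT_Con no member passed with edgeR, DESeq2 or limma-voom (10 of 32 at an unadjusted p under 0.05, 9.90% of 16813 genes). KI_Con lay above WT_Con without overlap for 3 members, Gstm3, Prdx1 and Txn1, and below it for 0, where 2.97% and 1.61% of genes did so (4.58% in all). Gstm3 had 138 ± 20.6 against 89.6 ± 20.3 CPM (n = 4 each; 0.61 ± 0.17, adjusted p = 0.502). Akr1b8 had -2.23 ± 0.99 (0.503) and Cbr3 -1.79 ± 0.66 (0.502) with WT_Con replicate 3, and 0.11 and -0.46 without it (0.981 and 0.897).

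In WT_Full vs WT_Con no member passed with edgeR (6 of 32 at an unadjusted p under 0.05, 17.8% of 16882 genes), and 3 were higher in every WT_Full than in every WT_Con library (Tkt, Srxn1 and Pgd), and 0 were lower in the same way, where 4.22% and 3.78% of genes were (8.00% in either direction). Gpx2 had 314 ± 145 against 94.6 ± 39.1 CPM (1.75 ± 0.43, adjusted p = 0.156), and Gsr 179 ± 42.2 against 100 ± 22.7 (0.85 ± 0.22, 0.159). These calls depended on WT_Full replicate 4 and on the method. With all libraries, DESeq2 called Gpx2 (0.00423), Gsr (0.0209) and Tkt (0.00738), and 1 edgeR fit of all 25 libraries called Tkt (0.00696). Limma-voom called 5 members, among them Gpx2, Gsr, Tkt and Ephx1 (0.0301). It used sample quality weights, so libraries did not count equally, and the weight of replicate 4 was not examined. Without replicate 4, edgeR called 5 members, Gpx2 at 2.03 (0.0111), Gsr at 1.01 (0.0157), Tkt at 0.74 (0.0251), Ugdh at -1.72 (0.0100) and Ephx1 at -1.26 (0.0176), and 2069 genes. The authors' deposited table calls 3 members higher in this comparison, Tkt at 0.66 (adjusted p = 0.000193), Taldo1 at 0.41 (0.0297) and Gsr at 0.84 (0.0355), where it calls 11.5% of genes. In WT_Full vs WT_Half, at the higher against the lower regimen, 7 of 32 members had an unadjusted p under 0.05, where 4.60% of 16967 genes did, and 0 passed with edgeR and 1, Cbr3, with DESeq2. The groups overlapped for all 32 members (0.477% of genes did not overlap, 0.218% higher and 0.259% lower).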

How the data were processed

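The authors deposited raw counts, whole reads assigned to each gene, for 25 libraries. Per the submitters' processing notes, FastQC, Trimmomatic, HISAT2, SAMtools, featureCounts and DESeq2 were used, and the build is GRCm38. No source used here states strand or multi-mapping settings. The log2 fold changes and adjusted p-values deposited by the authors are printed where named, and the deposited signal column (a mean of normalised counts) was not used for results. Repeated lines of an identifier (213 of 17220) held equal counts and were merged. Positions and exon overlaps come from GENCODE M21.

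Counts were tested in R 4.3.3 with edgeR 4.0.16 (quasi-likelihood F test, TMM, filterByExpr by group, no covariate, each pair of groups on its own, two-sided, Benjamini-Hochberg over all genes tested). All 32 members passed the filter on low counts in each test. Levels are TMM-scaled CPM (1 scaling for all 25 libraries) with SD, and log2 differences carry their SE. Alternatives used DESeq2 1.42.0, limma 3.58.1 (limma-voom with sample quality weights) and the settings of the closing section. The steps were tested on simulated counts. Members and lists were chosen with earlier results of these data known. Values by library are given for the 12 members with the smallest p across the 5 groups, for up to 5 called members of each comparison and for the regulators. Of each neighbouring list the 2 genes with the smallest p across groups are named, plus Slc3a2, Cat, Sod2, Gpx1 and Gpx4. Counts of library totals limit the precision of scarce members. No 2 libraries of a group agreed within sampling noise.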

Additional observations from a re-analysis of the deposited data

Results flagged for a closer look

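In groups of 4 to 10 libraries, 8 of 75 tested sets of values (15 members, 5 groups) held a library farther from the rest than Dixon's 95% limit, which chance reaches in about 1 of 20. WT_Con replicate 3 accounts for 4, with 111 CPM of Akr1b8 (others 3.72 to 10.2), 63.6 of Cbr3 (6.40 to 10.8), 1154 of Gsta4 (517 to 573) and 160.2 of Nqo1 (34.8 to 52.8). KI_Half replicate 3 had 1633 CPM of Gpx2 (others 173 to 697) and KI_Half replicate 7 had 52.1 of Ephx1 (21.0 to 31.2). Sqstm1 was high at 230.2 CPM in KI_Con replicate 4 (others 171 to 176) and low at 98.4 in WT_Half replicate 1 (147 to 162).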

How the results depend on the processing

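No called member changed direction under any alternative run. Among members that did not pass, some signs in comparisons with WT_Con depend on WT_Con replicate 3. Without it Akr1b8 (2.08), Cbr3 (0.14), Abcc1 (0.41) and Abcc4 (0.31) turned positive in WT_Half vs WT_Con, and Nqo1 (0.17), Akr1b8 (0.11) and Abcc4 (0.34) did so in KI_Con vs WT_Con, among others. Size factors by relative log expression and no filter on low counts changed no count of calls by over 1.5 times. In KI_Half vs KI_Con, leaving out a library gave 13 to 17 members and 4927 to 7477 genes, and dropping acinar-rich controls (Ctrb1 over 10 CPM) gave 6 members and 2565 genes. In WT_Half vs WT_Con the 1 member and 249 genes became 6 and 1353 with DESeq2, 5 and 1232 with limma-voom, 3 and 720 in 1 fit of all 25 libraries, 0 and 7 with the Brunner gland covariate, and 0 and 0 without acinar-rich controls, which leaves 1 WT_Con library assumed to vary like the others. Leaving out a library gave 0 to 3 members (3 without WT_Half replicate 1) and 21 to 446 genes. In WT_Full vs WT_Con the 0 members and 1 gene became 3 and 926 with DESeq2, 5 and 1410 with limma-voom, 1 and 1289 in 1 fit of all libraries, and 0 genes with the covariate or without acinar-rich controls. Leaving out a library gave 0 to 5 members and 0 to 2069 genes. In WT_Full vs WT_Half DESeq2 gave 1 member and 17 genes, limma-voom 2 genes and leaving out a library 0 to 2. In KI_Half vs WT_Half DESeq2 gave 3 members and 171 genes, limma-voom 3 and 884, the covariate and 1 fit of all libraries 2 genes each, and leaving out a library 0 to 1. In KI_Con vs WT_Con DESeq2 gave 11 genes, limma-voom 2, the covariate and 1 fit of all libraries 1 each, and leaving out a library 0 to 1. In the genotype difference in response DESeq2 gave 1 member and 36 genes and limma-voom 3 and 1138. Across the 5 groups limma-voom gave 8265 genes, dropping acinar-rich controls 4 members and 237 genes, and leaving out a library 13 to 19 members and 3604 to 6497 genes. The causes of these changes were not tested, and the fits that leave out libraries also have fewer samples.

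The labels give replicate numbers but do not say that a number marks a shared litter or day. The correlation of deviations between same-numbered libraries was over 0.1 in 1 of 3 pairs of KI_Half vs KI_Con and in 3 of 4 of KI_Con vs WT_Con, and in no comparison in all pairs. With the number as a replicate block, which keeps only shared numbers, 0 members and 0 genes passed in WT_Half vs WT_Con. In the same setting 0 genes passed in WT_Full vs WT_Con, 1 gene in KI_Con vs WT_Con, and 8 members and 2724 genes across the 5 groups. In KI_Half vs KI_Con 16 members passed with the block, and Nqo1 (0.226), Gclm (0.0572) and Prdx1 (0.0570) of the 15 were lost. The number of all genes called in that fit is not given here, so the 16 cannot be set against a background.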
